A study of Rattus norvegicus with 12 samples.

Results

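The rat genes of the integrin and laminin families were followed in skin wounds of diabetic rats. They were taken as every gene whose symbol is an integrin alpha chain (*Itga* with any suffix), an integrin beta chain (*Itgb1* to *Itgb8*), or a laminin alpha, beta, or gamma chain (*Lama*, *Lamb*, or *Lamc*), a rule that uses names and no measured values. It found 37 of the 25620 genes counted, namely 18 integrin alpha chains, 8 integrin beta chains, and 11 laminin chains. All 37 also have an FPKM value (fragments scaled by gene length and library total), the scale on which genes are compared with each other below. The rats were male SD rats, which the study describes as 8 to 12 weeks old. They had diabetes induced by streptozotocin and carried full-thickness wounds on the back, in all 4 groups alike. The groups were the control (saline), d-SMG (dried mucus gel of the snail *A. fulica*), s-GAG (the glycosaminoglycan of that mucus, labelled GAG), and Alg (a commercial alginate dressing), each on day 3, 7, and 14. There was 1 library for each group and day, 12 altogether, and the labels give neither the age of the rats nor whether a library came from 1 animal or from pooled animals.

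Integrins are pairs of an alpha and a beta chain that cross the cell membrane and tie the cytoskeleton to the extracellular matrix or to other cells. Laminins are trimers of an alpha, a beta, and a gamma chain, and with collagen IV and nidogen they build the sheet called the basement membrane. In skin, basal keratinocytes hold on to this sheet through hemidesmosomes, in which the pair of *Itga6* and *Itgb4* binds a laminin that holds the chains of *Lama3* and *Lamb3*. Fibroblasts and vessels bind collagen and fibronectin through pairs that mostly use the chain of *Itgb1*, and leukocytes adhere to vessels and matrix with pairs built on *Itgb2*. A wound holds all of these cells, and therefore the genes are described here by role: 9 epithelial genes, 10 stromal integrins, 8 leukocyte integrins, 8 laminins of other basement membranes, and 2 alpha chains of muscle and platelets.

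The libraries held 13748887 to 38302461 reads on genes, a ratio of 2.79, and the integrins and laminins took 0.164 to 0.360% of them. In bulk tissue, fewer cells of a type and less RNA per cell cannot be told apart. Of the 12 libraries, 2 stood apart. The d-SMG library of day 3 is labelled skin, but its 11 keratinocyte markers found (of 14 listed) summed to 16.1 FPKM, against 2160 to 13779 FPKM in the other 11 libraries. The basal keratins *Krt5* and *Krt14* had 98 and 263 reads there and at least 13487 and 37472 reads elsewhere, while 15 skeletal muscle markers took 18.8% of its reads against 0.796 to 15.2% in the others. The s-GAG library of day 14 had an FPKM sum over all genes of 653222, against 380244 to 480767 in the others, and its long genes were low. Against the control of that day, with the genes split by implied length into 4 groups of equal size, the median log2 ratio was 1.26 in the shortest group and −1.15 in the longest, a difference of −2.41. That difference lay between −0.71 and 0.72 in the other 8 comparisons with a control.

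**Figure D1:**
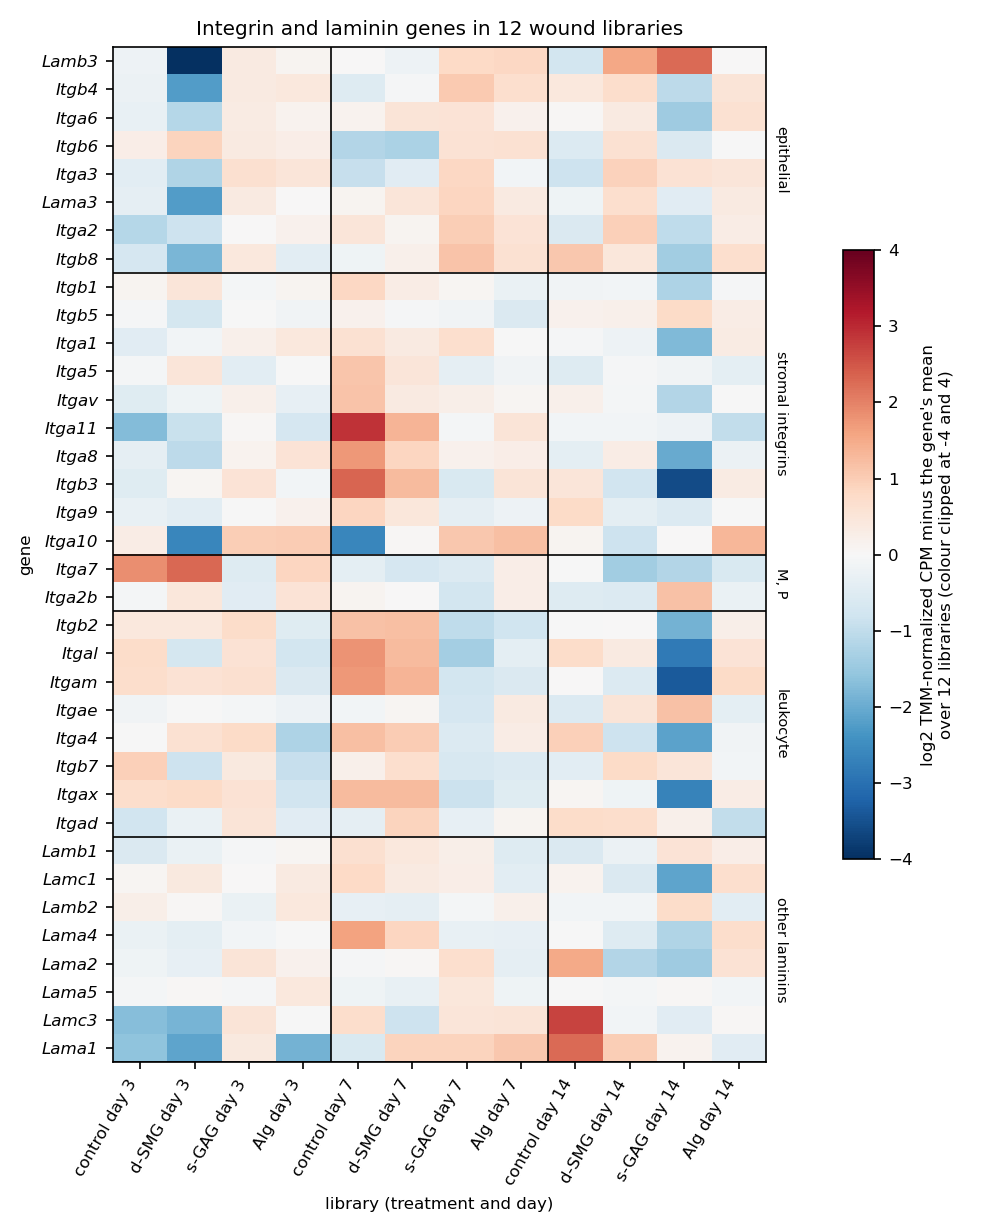
Level of 36 integrin and laminin genes (rows, by role; M, P marks *Itga7* of muscle and *Itga2b* of platelets) in the 12 libraries (columns), as log2 TMM-normalized CPM minus the gene's mean over the libraries. Over all 37 genes, the control library of day 7 had the highest level of 14, and the s-GAG library of day 14 and the d-SMG library of day 3 had the lowest level of 15 and 10. The last 2 are the libraries that stood apart. The counts include genes with few reads, and the matching shares over all genes were not computed.

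Upstream sequence is shown for the epithelial laminin *Lamb3*, the leukocyte integrin *Itgam*, and the collagen-binding integrin *Itga11*, 3 genes of different roles on which much of the following rests. They were chosen after their values were seen. The sequences are those of RefSeq for build GRCr8, from 250 bases before to 50 bases after the start of the gene, and 28 of the 37 genes had an entry. All 3 genes lie on the plus strand, *Lamb3* at chr13:107362303-107362602, *Itgam* at chr1:192089342-192089641, and *Itga11* at chr8:72041182-72041481. Capitals mark GAGGAA or its reverse complement TTCCTC, a core that the myeloid ETS factor PU.1 can bind.
Lamb3: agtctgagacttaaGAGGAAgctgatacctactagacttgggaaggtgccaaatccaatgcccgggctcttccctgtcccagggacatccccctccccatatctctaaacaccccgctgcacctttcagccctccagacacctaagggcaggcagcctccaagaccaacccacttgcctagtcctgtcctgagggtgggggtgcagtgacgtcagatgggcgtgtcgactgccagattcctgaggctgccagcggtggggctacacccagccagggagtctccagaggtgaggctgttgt
Itgam: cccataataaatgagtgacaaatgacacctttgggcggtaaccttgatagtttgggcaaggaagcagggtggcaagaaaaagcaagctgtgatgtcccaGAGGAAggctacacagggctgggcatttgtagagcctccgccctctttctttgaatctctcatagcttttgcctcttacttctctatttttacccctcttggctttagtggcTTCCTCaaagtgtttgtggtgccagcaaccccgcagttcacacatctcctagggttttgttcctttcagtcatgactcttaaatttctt
Itga11: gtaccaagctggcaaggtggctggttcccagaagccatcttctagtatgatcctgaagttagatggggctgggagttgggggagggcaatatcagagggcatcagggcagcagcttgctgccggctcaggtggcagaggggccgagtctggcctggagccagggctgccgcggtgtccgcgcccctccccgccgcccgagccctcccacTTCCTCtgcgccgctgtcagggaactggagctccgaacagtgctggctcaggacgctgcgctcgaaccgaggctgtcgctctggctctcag
The core stood once in the *Lamb3* and *Itga11* sequences and 2 times in that of *Itgam*. On either strand it was present in 12 of the 28 promoters (42.9%), against 7563 of 27457 promoters of the rat table (27.5%). The AP-1 element TGANTCA, searched on both strands, was found in 2 of the 28, those of *Itgax* and *Lama3* (7.14%), against 7.33% of all promoters. Neither motif contains the other, and a match describes these letters only.

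Each treated library was set against the same-day control by the log2 ratio of TMM-normalized CPM (reads scaled by the effective size of the library). With 1 library per group and day these differences have no replicate check and no test. A gene is counted as higher or lower when the ratio is past 2-fold, provided that both libraries together had 10 or more reads on it, and an interval given for a single gene covers the counting error only. The 3 comparisons of a day share their control library. On day 3, 7 of 35 genes were lower and 0 higher with d-SMG, where 14.2% of all genes were lower and 9.38% higher. With s-GAG, 1 of 36 was lower and 8 higher (10.8 and 14.2% of all genes), and with Alg 6 were lower and 3 higher (8.5 and 11.1% of all genes). Lower levels thus outnumbered higher ones with d-SMG and Alg, whereas s-GAG had the opposite split, and scaling by library size in place of TMM turned the Alg split to 5 lower and 6 higher. On day 7, d-SMG gave the fewest differences, 3 of 36 lower and 2 higher (6.2 and 6.51% of all genes). The s-GAG library had 11 of 37 lower and 6 higher on that day (12.3 and 13.3% of all genes), and the Alg library 14 of 36 lower and 3 higher (11.6 and 12.5% of all genes). More genes were lower than higher in all 3 comparisons of day 7, except that library-size scaling gave 2 and 2 with d-SMG. On day 14, 7 of 36 were lower and 7 higher with d-SMG (15.8 and 12.4% of all genes), and 4 lower and 2 higher with Alg (11.9 and 8.97% of all genes). The s-GAG library of day 14, the one with low long genes, had 20 of 36 lower and 5 higher, beside 30 and 27.5% of all genes. Library-size scaling gave 6 lower and 8 higher with d-SMG and 20 lower and 3 higher with s-GAG on that day. Which genes these were differed by role.

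**Figure D2:**
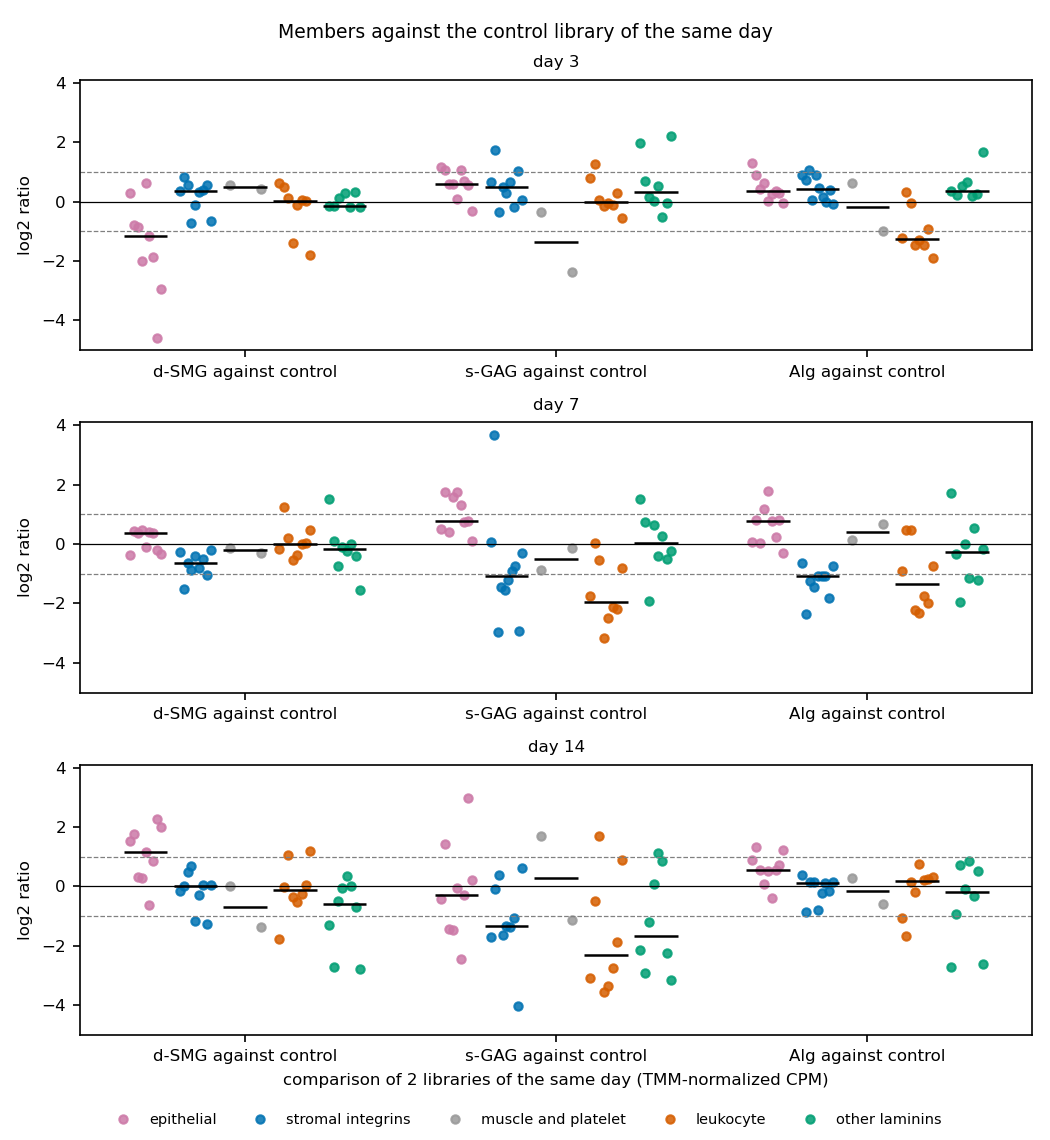
Log2 ratio of each integrin or laminin gene to the same-day control (vertical axis, TMM-normalized CPM; 1 point per gene with 10 or more reads), by treatment and role; black bars are medians over the genes of a role and dashed lines mark 2-fold. On day 3 the epithelial genes of d-SMG had a median of −1.16, and on day 7 the leukocyte integrins had medians of −1.94 with s-GAG and −1.34 with Alg.

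With d-SMG, 5 of the 9 epithelial genes were lower than in the control on day 3 (14.2% of all genes) and 5 of the 9 were higher on day 14 (12.4% of all genes). *Lamb3*, the beta chain of the laminin of hemidesmosomes, had 13.2, 14.8, and 9.05 FPKM in the control on day 3, 7, and 14 and 0.40, 16.2, and 48.9 FPKM with d-SMG. With s-GAG it had 21.3, 26.1, and 53.9 FPKM, and with Alg 17.1, 24.5, and 16.4 FPKM. On day 14 its control level was the lowest of the 4 libraries, whereas on day 7 the d-SMG and control libraries were close, with a log2 ratio of −0.20 (−0.32 to −0.08) in TMM-normalized CPM. *Itgb4*, the beta chain of the hemidesmosome, had 7.23, 5.78, and 11.3 FPKM in the control and 1.35, 10.02, and 15.3 FPKM with d-SMG. The s-GAG libraries had 11.8, 17.7, and 3.06 FPKM and the Alg libraries 11.95, 12.5, and 13.1 FPKM. On day 7 all 3 treated libraries were above the control for this gene.

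The epithelial genes of the d-SMG library of day 3 had a median log2 ratio of −1.16 to the control, against −0.03 over all genes. *Lamb3* had the greatest difference, with a log2 ratio of −4.60 (95% counting interval −5.19 to −4.09) from 30 reads. The ratio was −1.99 for *Itgb4*, −1.88 for the alpha chain *Lama3*, and −1.16 for *Itgb8*, which binds latent TGF-beta. *Itga2* (0.29), *Itga3* (−0.78), and *Itga6* (−0.85) stayed within 2-fold. *Itgb6*, the other epithelial beta chain that binds latent TGF-beta, went the other way. It had 5.19 FPKM against 4.53 in the control and a ratio of 0.63 (0.45 to 0.81), within 2-fold. In TMM-normalized CPM the d-SMG library of day 3 held the highest *Itgb6* level of the 12 libraries, although its keratinocyte markers were so low. The FPKM ratio of *Itgb6* to *Itgb4* was therefore 3.84 in that library and 0.190 to 0.627 in the 10 libraries left without it and s-GAG day 14. This is the library in which the keratinocyte markers summed to 16.1 FPKM against 2789 FPKM in the control, and the part of those cells in these values was not tested.

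On day 7 the epithelial genes were highest with s-GAG, where 4 of 9 were past 2-fold higher (13.3% of all genes), 0 were lower, and the median log2 ratio was 0.79. They were *Itgb6* (1.77), *Itga3* (1.76), *Itgb4* (1.58), and *Itgb8* (1.31), and *Itga3* encodes the partner of *Itgb1* that binds epithelial laminin outside hemidesmosomes. With Alg 2 of 9 were higher (12.5% of all genes), *Itgb6* with a ratio of 1.78 and *Itgb4* with 1.19, and the median was 0.77. With d-SMG none passed 2-fold, and the ratios ranged from −0.38 to 0.46. The summed keratinocyte markers of that day were 2160 FPKM in the control, 5229 with d-SMG, 8277 with s-GAG, and 7166 with Alg, higher in each treated library. The 9 hair follicle markers summed to 6.83, 340, 671, and 45.97 FPKM in the same order, and the part of either in the epithelial levels was not tested.

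On day 14 the 9 epithelial genes had a median log2 ratio of 1.15 with d-SMG, and among the higher ones were *Lamb3* (2.28, interval 2.17 to 2.39), *Itga3* (1.75), the collagen receptor chain *Itga2* (1.52), and *Itgb6* (1.15). With Alg, *Itga3* had a ratio of 1.31. With s-GAG the chains of the same laminin parted, *Lamb3* having a log2 ratio of 2.98 (2.88 to 3.09) and *Lama3* one of −0.29 (−0.45 to −0.13). The FPKM ratio of *Lamb3* to *Lama3* was 40.5 in that library, against a median of 6.09 over the 12 libraries and 3.87 to 11.2 in the 10 without it and d-SMG day 3. The lengths implied by counts and FPKM were 4539 bases for *Lamb3* and 20266 bases for *Lama3*, and the part of the low long genes in this difference was not tested. The keratinocyte markers summed to 4146, 10464, 13779, and 9092 FPKM in the control, d-SMG, s-GAG, and Alg libraries of day 14, and the hair follicle markers to 106, 500.04, 1448, and 3188 FPKM. Most of the keratinocyte list did not follow its sum, in which *Krt14* alone had 11739 FPKM with s-GAG. Of the 11 markers, 6 were past 2-fold lower and 3 higher with s-GAG (median log2 ratio −3.22). With d-SMG 4 were lower and 4 higher (median 0.11), and with Alg 1 was lower and 4 higher (median 0.75).

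**Figure D3:**
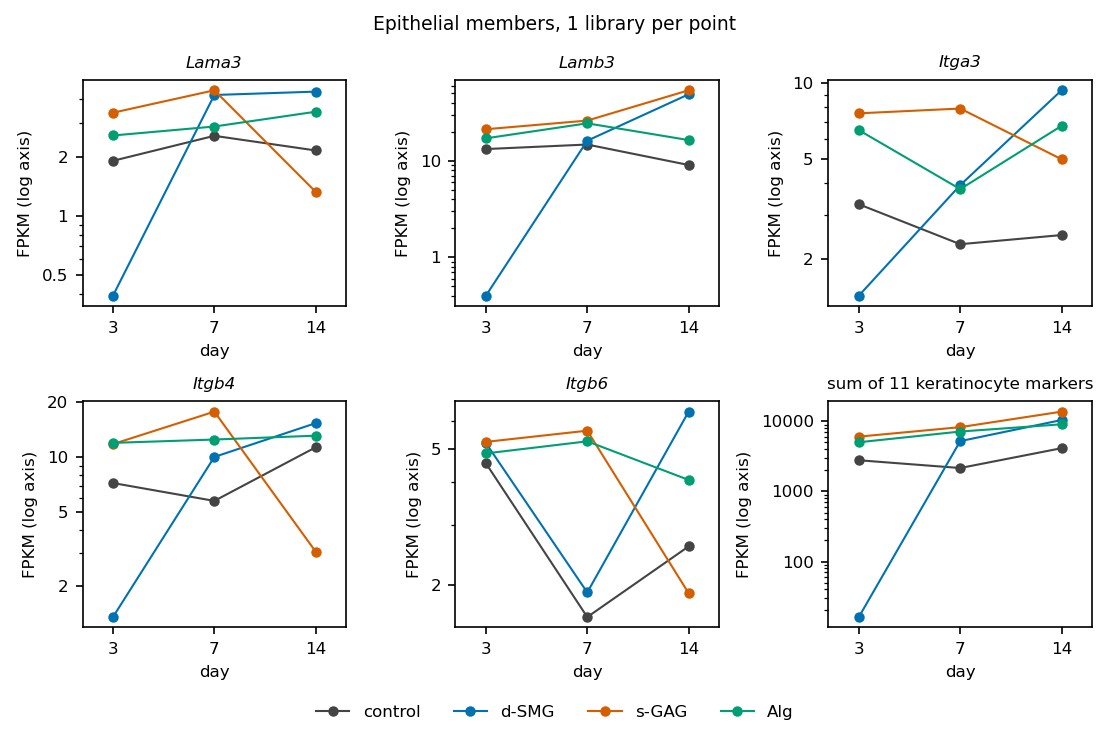
FPKM (log axis) of the laminin chains *Lama3* and *Lamb3*, the integrin chains *Itga3*, *Itgb4*, and *Itgb6*, and the sum of 11 keratinocyte markers on day 3, 7, and 14, with 1 library per point and 1 line per treatment. The d-SMG library of day 3 was lowest in every panel except *Itgb6*, where it had 5.19 FPKM against 4.53 in the control, and on day 14 s-GAG was highest for *Lamb3* and lowest for *Itgb4*.

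Over the 3 days together, *Itga3* was the only epithelial gene with an unadjusted p under 0.05 for a treatment. Its levels were 3.30, 2.29, and 2.49 FPKM in the control on day 3, 7, and 14, and 7.58, 7.92, and 4.98 FPKM with s-GAG. It had 1.43, 3.93, and 9.36 FPKM with d-SMG and 6.50, 3.79, and 6.76 FPKM with Alg. The s-GAG and control libraries did not overlap, and neither did those of Alg and the control, whereas d-SMG held both the lowest and the highest of the 12 values. In edgeR's quasi-likelihood test with day as a term, s-GAG was higher than the control by a log2 fold change of 1.41 (SE 0.463, higher on 3 of 3 days), with an adjusted p of 0.467. Of all genes, 0% were called in that comparison and 9.26% had an unadjusted p under 0.05. Over 21 alternative settings the change ranged from 1.07 to 1.69 and the adjusted p from 0.0865 to 0.937, the lowest without the 2 libraries that stood apart. For Alg the change was 0.99 (SE 0.458, higher on 3 of 3 days, adjusted p = 1). The 9 epithelial genes had a median of 0.48 with s-GAG and 0.55 with Alg, 8 and 9 of them above 0, beside medians near 0 over all genes (0.00 and −0.03). The keratinocyte marker sums also lay above the control on each day with both, at 6062 and 5038 against 2789 FPKM on day 3. With s-GAG on day 14, however, 6 of 11 markers were past 2-fold lower and 3 higher. The part of keratinocytes in these changes was not tested. *Itga3* was added to the genes described in full after its values were seen.

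On day 7, 5 of the 8 leukocyte integrins were lower with s-GAG and 4 with Alg (12.3 and 11.6% of all genes). *Itgb2*, the beta chain shared by the integrins of neutrophils, macrophages, and lymphocytes, had 19.4, 31.5, and 14.2 FPKM in the control on day 3, 7, and 14. It had 14.5, 40.8, and 16.3 FPKM with d-SMG. The levels were 25.8, 7.07, and 2.91 FPKM with s-GAG and 10.9, 7.57, and 18.4 FPKM with Alg. On day 7 the control and d-SMG libraries were both high and the s-GAG and Alg libraries both low. *Itgam*, the alpha chain of Mac-1 on myeloid cells, had 6.59, 13.4, and 4.09 FPKM in the control and 4.54, 12.95, and 3.14 FPKM with d-SMG. The s-GAG libraries had 6.88, 2.45, and 0.29 FPKM and the Alg libraries 2.86, 2.52, and 7.5 FPKM. On day 7 the control and d-SMG libraries again lay above those of s-GAG and Alg, and on day 3 the Alg library was the lowest. *Itgal*, the alpha chain of LFA-1 on lymphocytes, had 5.19, 10.7, and 5.23 FPKM in the control and 1.45, 9.27, and 4.50 FPKM with d-SMG. The s-GAG libraries had 5.14, 1.21, and 0.33 FPKM and the Alg libraries 2, 2.18, and 4.98 FPKM. For all 3 genes the highest of the 12 values was in the control or d-SMG library of day 7 and the lowest in the s-GAG library of day 14.

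None of the 8 was higher with s-GAG or Alg on that day. The log2 ratios with s-GAG were −3.17 for *Itgal* (interval −3.40 to −2.96), −2.48 for *Itgam*, −2.19 for *Itgb2*, −2.13 for the dendritic cell and macrophage chain *Itgax*, and −1.76 for *Itga4*, which binds *Vcam1*. With Alg they were −2.32 for *Itgam*, −2.21 for *Itgal*, −1.97 for *Itgb2*, −1.75 for *Itgax*, and −0.92 for *Itga4*, the last within 2-fold. With d-SMG the same 5 genes had ratios from −0.54 to 0.04. *Itgae*, which binds E-cadherin on epithelium, was within 2-fold, with ratios of −0.55 and 0.48 in the s-GAG and Alg libraries, as were *Itgad* (0.03 and 0.46) and *Itgb7* (−0.83 and −0.74). Both comparisons rest on the control library of day 7. The 12 macrophage markers summed to 1797 and 2830 FPKM in the control and d-SMG libraries of that day and to 733 and 569 FPKM with s-GAG and Alg, and the 11 T and NK cell markers found (of 12 listed) to 133, 149, 45.7, and 36.4 FPKM. The part of cell number in the integrin levels was not tested.

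On day 3 the Alg library had 5 of 8 leukocyte integrins lower (median log2 ratio −1.26, beside 8.5% of all genes lower), from −1.90 for *Itgb7*, a chain of lymphocytes that home to the gut, to −1.23 for *Itga4*. Its macrophage markers summed to 769 FPKM against 2544 in the control, and those of the d-SMG and s-GAG libraries to 968 and 1283 FPKM. With d-SMG *Itgb7* and *Itgal* were lower on that day (−1.80 and −1.41) while *Itgb2* and *Itgam* had ratios of 0.01 and −0.11, and with s-GAG the latter pair had 0.30 and −0.06. On day 14 the s-GAG library had 5 of 8 lower and 1 higher, beside 30 and 27.5% of all genes. *Itgal* (−3.57), *Itgam* (−3.37), *Itga4* (−3.09), *Itgax* (−2.75), and *Itgb2* (−1.87) were lower, and *Itgae* was higher (1.71, interval 1.44 to 1.98). This is the library with low long genes, and its macrophage markers summed to 335 FPKM against 1567 in the control of that day and its T and NK cell markers to 36.4 against 105 FPKM. Of 11 macrophage markers 8 were past 2-fold lower and 0 higher (median log2 ratio −2.26). Of 11 T and NK cell markers only 3 were lower and 1 was higher (median 0.10), so that this list did not follow its sum. The part of the low long genes or of cell number in these values was not tested. *Itgam* and *Itgal* had 25 and 31 reads in that library, and the FPKM ratio of *Itgb2* to *Itgam* was 10.03 there against 2.36 to 5.19 in the 10 libraries without it and d-SMG day 3. *Itgad*, a chain of tissue macrophages, had 7 to 36 reads in the 12 libraries.

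**Figure D4:**
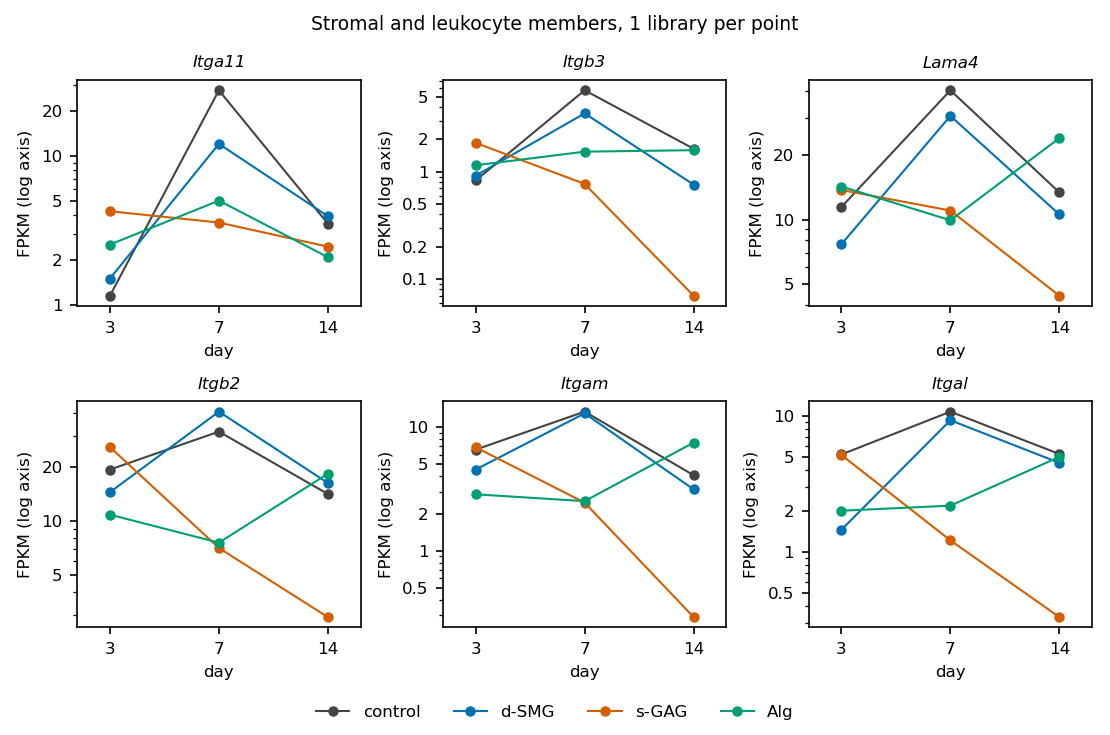
FPKM (log axis) of the stromal genes *Itga11*, *Itgb3*, and *Lama4* and the leukocyte integrins *Itgb2*, *Itgam*, and *Itgal* on day 3, 7, and 14, with 1 library per point and 1 line per treatment. On day 7 the control and d-SMG libraries lay above the s-GAG and Alg libraries in all 6 panels, for *Itga11* at 27.5 and 12.03 against 3.58 and 5.02 FPKM.

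Among the stromal integrins, log2 TMM-normalized CPM spanned 4.61 over the 12 libraries for the alpha chain *Itga11*, 2.05 for the beta chain *Itgb1*, and 1.48 for the beta chain *Itgb5*. *Itgb1*, the partner of most collagen, fibronectin, and laminin receptors, had 71.1, 114, and 59.4 FPKM in the control on day 3, 7, and 14 and 68.7, 100, and 68.9 FPKM with d-SMG. With s-GAG it had 67.6, 69.9, and 21.2 FPKM, and with Alg 75.1, 51.2, and 70.4 FPKM. It was the most abundant integrin in every library except the s-GAG library of day 14, where *Itgb5* was higher. It was past 2-fold lower with Alg on day 7 (log2 ratio −1.07) and with s-GAG on day 14 (−1.08). *Itgb5*, a partner of *Itgav* that binds vitronectin, had 34.9, 39.4, and 40.3 FPKM in the control and 16.5, 42.8, and 46.4 FPKM with d-SMG. The s-GAG libraries had 38.96, 32.8, and 46.3 FPKM and the Alg libraries 34.9, 22.4, and 48.1 FPKM. With TMM scaling it was past 2-fold in none of the 9 comparisons with a control, the log2 ratio of d-SMG on day 3 being −0.65, although the FPKM was 16.5 there against 34.9 in the control. *Itga1*, a collagen receptor of stroma and vessels, had 3.68, 7.47, and 4.84 FPKM in the control and 3.49, 7.86, and 4.89 FPKM with d-SMG. With s-GAG it had 6.29, 8.06, and 1.10 FPKM and with Alg 7.20, 4.56, and 6.94 FPKM. With TMM scaling it was past 2-fold in the s-GAG library of day 14 (log2 ratio −1.72) and in no other, the Alg library of day 3 being next with 0.89.

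*Itga11*, the fibrillar collagen receptor of fibroblasts, was highest in the control library of day 7. It had 1.16, 27.5, and 3.52 FPKM in the control on day 3, 7, and 14 and 1.51, 12.03, and 3.95 FPKM with d-SMG. With s-GAG it had 4.26, 3.58, and 2.47 FPKM and with Alg 2.55, 5.02, and 2.10 FPKM. The d-SMG, s-GAG, and Alg libraries of day 7 had log2 ratios of −1.52 (−1.62 to −1.42), −2.97 (−3.09 to −2.86), and −2.37 (−2.51 to −2.23) to that 1 control library. On day 3 the ratios were above 0 in all 3 treated libraries (0.82, 1.76, and 1.06), and on day 14 those of d-SMG, s-GAG, and Alg were 0.01, −0.10, and −0.87 (−1.12 to −0.62). In the quasi-likelihood test over all 12 libraries, day 7 was above day 3 by a log2 fold change of 1.99 (SE 0.656, higher in 3 of 4 treatments, adjusted p = 0.999). Day 14 was below day 7 by −1.75 (lower in 4 of 4 treatments, adjusted p = 0.904). Neither passed, and over the alternative settings the changes ranged from 1.31 to 2.54 and from −2.21 to −0.91. *Itga11* was added to the genes described in full after its values were seen.

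With Alg on day 7, 7 of the 9 stromal integrins with enough reads were lower (11.6% of all genes), 0 were higher (12.5% of all genes), and all 9 ratios were below 0 (median −1.08). With s-GAG 5 of 10 were lower on that day and 1 was higher (median −1.07, beside 12.3 and 13.3% of all genes), the higher one being *Itga10*, a cartilage collagen receptor with 0 to 12 reads in the libraries. After *Itga11*, the platelet, vessel, and myeloid chain *Itgb3* was the lowest of these genes on day 7, with log2 ratios of −1.04 with d-SMG, −2.93 with s-GAG, and −1.82 with Alg. The fibronectin receptor chain *Itga5* had ratios of −0.63, −1.46, and −1.24, and the nephronectin receptor chain *Itga8* of −0.88, −1.55, and −1.46. The 10 fibroblast markers summed to 8492, 6669, 1813, and 2165 FPKM in the control, d-SMG, s-GAG, and Alg libraries of day 7, and the 10 endothelial markers to 202, 253, 126, and 99.4 FPKM. The fibroblast sum was thus lower in all 3 treated libraries, and the endothelial sum was lower with s-GAG and Alg and higher with d-SMG. With d-SMG, however, 0 of 10 endothelial markers were past 2-fold in either direction (median log2 ratio 0.03). Of its 10 fibroblast markers, 2 were lower and 1 was higher (median −0.36). The part of either cell type in the integrin levels was not tested. On day 14, 6 of 9 were lower with s-GAG, among them *Itgb3* with 5 reads (−4.05, interval −5.80 to −2.89), and 2 of 9 with d-SMG, *Itgb3* and *Itga9*. Of all genes, 30 and 15.8% were lower with s-GAG and d-SMG on that day, and this s-GAG library is the one with low long genes.

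The laminins of other basement membranes were led by *Lamb1*, *Lamc1*, and *Lamb2*, the beta and gamma chains that vessels, muscle, nerve, and stroma share. *Lamb1* had 41.3, 93.0, and 40.7 FPKM in the control on day 3, 7, and 14 and 37.7, 100, and 58.1 FPKM with d-SMG. It had 65.0, 71.2, and 67.1 FPKM with s-GAG and 69.1, 39.5, and 79.7 FPKM with Alg. On day 3 the s-GAG and Alg libraries were above the other two, and on day 7 the Alg library was lowest. *Lamc1* had 47.0, 74.4, and 48.7 FPKM in the control and 43.6, 70.3, and 33.2 FPKM with d-SMG. Its s-GAG libraries had 49.1, 53.7, and 7.73 FPKM and its Alg libraries 59.8, 30.4, and 76.3 FPKM. Its s-GAG level of day 14 was by far the lowest. *Lamb2* had 50.01, 32.8, and 39.1 FPKM in the control and 32.8, 40.9, and 43.8 FPKM with d-SMG. The s-GAG libraries had 38.4, 40.3, and 52.8 FPKM and the Alg libraries 60.1, 45.4, and 34.4 FPKM. This chain was within 2-fold of the control in all 9 comparisons.

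With Alg on day 7, *Lamb1* and *Lamc1* were lower together (log2 ratios −1.15 and −1.21), as was the vessel chain *Lama4* (−1.94), whereas *Lamb2* was at 0.55. *Lama4* was also lower with s-GAG on that day (−1.91), at 11.03 FPKM against 40.4 in the control and 30.7 with d-SMG. In the s-GAG library of day 14 the 2 usually paired chains parted, *Lamb1* having a ratio of 1.13 (1.08 to 1.18) and *Lamc1* one of −2.24 (−2.33 to −2.16). The FPKM ratio of *Lamb1* to *Lamc1* was 8.68 there and 0.836 to 1.75 in the 10 libraries without it and d-SMG day 3, and the implied lengths were 6389 and 8341 bases. With library size in place of TMM, which shifts the median of all genes by −0.45 in that comparison, the ratio of *Lamb1* was 0.68 and no longer past 2-fold. *Lama5*, the alpha chain of epithelial and vessel basement membranes, had 1.95 to 3.63 FPKM in the 12 libraries and spanned 0.76 in log2 TMM-normalized CPM, against 1.15 for *Lamb2*.

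The control library of day 14 held the highest level of 3 laminins. *Lamc3*, the least widely used gamma chain, had 8.64 FPKM there and 0.27 to 2.15 FPKM in the other 11 libraries, with log2 ratios of −2.80 with d-SMG, −3.16 with s-GAG, and −2.63 with Alg. *Lama2*, the alpha chain of muscle and peripheral nerve, had 9.81 FPKM in that control and 1.67, 0.96, and 5.56 FPKM with d-SMG, s-GAG, and Alg. *Lama1* had 1 to 45 reads in the libraries and was highest there as well. Over the 3 days *Lamc3* was lower with d-SMG on 3 of 3 days (log2 fold change −1.98, adjusted p = 1 in edgeR's quasi-likelihood test), and it ranged from −2.59 to −0.55 over the alternatives. On day 7 the log2 ratio was −1.56, but on day 3 it was only −0.17, from 32 and 69 reads, with a counting interval that spans 0 (−0.82 to 0.45). With s-GAG and Alg, *Lamc3* was past 2-fold higher than in the control on day 3. Those log2 ratios were 2.21 (1.83 to 2.63) and 1.67 (1.27 to 2.10), opposite in direction to day 14. *Lama4* and *Lamc3*, like *Itgb3* and *Itgb6*, were singled out after their values were seen.

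The alpha chain of muscle, *Itga7*, had the smallest p-value of the integrins and laminins in any comparison of days or treatments. It had 17.9, 3.61, and 4.79 FPKM in the control on day 3, 7, and 14 and 17.8, 3.71, and 2.04 FPKM with d-SMG. With s-GAG it had 3.75, 3.35, and 1.63 FPKM, and with Alg 9.45, 5.42, and 3.48 FPKM. Within each treatment day 3 was the highest, but the s-GAG library of day 3 lay below the control library of day 14 and the Alg library of day 7. Day 14 was below day 3 in 4 of 4 treatments, with a log2 fold change of −2.06 (SE 0.527, 95% interval −3.24 to −0.87), with an adjusted p of 0.882 in edgeR's quasi-likelihood test. DESeq2 called it (−2.05, adjusted p = 0.0458), the one change of call among the 21 alternatives, over which the adjusted p reached 1. Day 7 against day 3 gave −1.57 (edgeR, adjusted p = 0.999). The 15 skeletal muscle markers took 8.74, 18.8, 5.25, and 5.18% of the reads on day 3 in the control, d-SMG, s-GAG, and Alg libraries, 6.73, 0.796, 5.37, and 15.2% on day 7, and 7.48, 1.04, 10.6, and 1.45% on day 14. The later libraries with the highest muscle marker shares, Alg day 7 and s-GAG day 14, had 5.42 and 1.63 FPKM of *Itga7*. The s-GAG library of day 14 is the one with low long genes. Of its 15 muscle markers, 4 were past 2-fold lower and 8 higher than in the control. The part of muscle or of the low long genes in the *Itga7* levels was not tested. *Itga2b*, the platelet chain, was low throughout, with 17 to 52 reads. It had 0.37, 0.42, and 0.27 FPKM in the control on day 3, 7, and 14 and 0.40, 0.48, and 0.30 FPKM with d-SMG. The s-GAG libraries had 0.31, 0.23, and 0.67 FPKM and the Alg libraries 0.61, 0.44, and 0.36 FPKM. Both the lowest and the highest value were in s-GAG libraries.

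**Figure D5:**
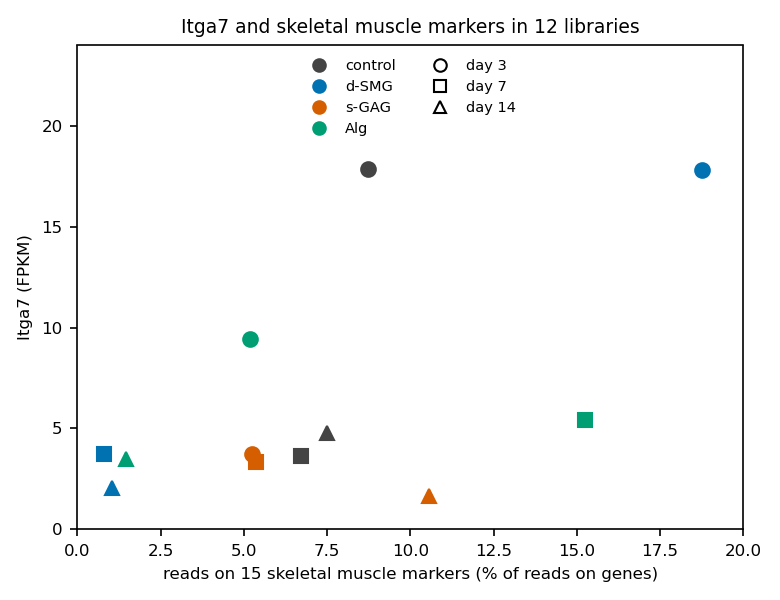
FPKM of *Itga7* (vertical axis) against the percentage of reads on 15 skeletal muscle markers (horizontal axis) in the 12 libraries; colour marks the treatment and shape the day. The control and d-SMG libraries of day 3 were highest, at 17.9 and 17.8 FPKM, with 8.74 and 18.8% of reads on the markers, and s-GAG day 14 had 1.63 FPKM with 10.6%.

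The comparisons of days and of treatments over days were tested on all 12 libraries with edgeR's quasi-likelihood test, with treatment and day as terms, so that the other factor's libraries serve as replicates. The p-values measure only the spread between these libraries. No gene was called at an adjusted p of 0.05 in any of the 6 comparisons (0% of 16110 genes tested), and hence 0 of the 36 integrins and laminins tested. At an unadjusted p under 0.05, *Itga11* and *Itga7* passed for day 7 against day 3 (1.81% of all genes passed). *Itga7* and *Lama1* did for day 14 against day 3 (4.95%), and *Itga11* and *Itga8* for day 14 against day 7 (3.12%). *Lamc3* passed for d-SMG (1.35%), *Itga3* for s-GAG (9.26%), and none for Alg (3.12%), in each case against the control. With DESeq2 the counts of called integrins and laminins were 1 for day 14 against day 3 and 0 in the other 5, and with limma on log2 FPKM they were 0 in all 6. Without the 2 libraries that stood apart they were 0 in all 6 as well. The BCV, the relative spread between libraries left after both terms, was 0.495. Between day 3 and day 7, 27 of the 36 genes had a positive fitted change (median 0.31, against 0.00 over all genes), including all 9 stromal integrins tested. Of those 9, however, *Itga5*, *Itga9*, *Itgb1*, and *Itgb5* were higher on day 7 in only 2 of 4 treatments.

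Other genes of the pathway were counted in 5 lists: 24 adhesome genes that link integrins to actin, 10 hemidesmosome and anchoring genes, 15 partners of laminin in basement membranes, 18 integrin ligands, and 7 genes of latent TGF-beta. In each of the 6 tested comparisons 0 genes of each list were called in either direction. At an unadjusted p under 0.05 a list had 0 to 4 genes, the most being 4 of 16 integrin ligands for day 14 against day 3, where 4.95% of all genes passed. For s-GAG they were 3 of 7 genes of latent TGF-beta, 3 of 16 integrin ligands, and 3 of 24 adhesome genes, where 9.26% of all genes passed. On single days, the s-GAG library of day 14 had 10 of 15 basement membrane partners and 12 of 24 adhesome genes lower and 1 higher in each list, beside the 30 and 27.5% of all genes. This is the library with low long genes, and the part of gene length in these counts was not tested. On day 7, 7 of 15 basement membrane partners were lower with s-GAG and with Alg alike, where 1 was lower with d-SMG, and 3, 1, and 0 were higher with s-GAG, Alg, and d-SMG. Of all genes, 12.3, 11.6, and 6.2% were lower and 13.3, 12.5, and 6.51% higher with s-GAG, Alg, and d-SMG on that day. Of the hemidesmosome and anchoring genes, 7 of 10 were higher and 0 lower with s-GAG on day 3 (median log2 ratio 1.08), and 4 were higher and 0 lower with Alg. The d-SMG library of day 3 had 4 lower and 4 higher, the extreme being −7.19. On that day 14.2, 11.1, and 9.38% of all genes were higher with s-GAG, Alg, and d-SMG, and 10.8, 8.5, and 14.2% lower, while the hair follicle markers summed to 1036, 456, and 1.69 FPKM against 6.6 in the control. Among the genes of latent TGF-beta, the ligand of *Itgb6* and *Itgb8*, 4 of 7 were higher with s-GAG on day 7 and 0 with d-SMG or Alg, with 0 lower in all 3.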

How the data were processed

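The data are RNA sequencing of rat wound tissue labelled skin, 12 libraries prepared with strand information and without rRNA and read from both ends. The authors deposited read counts of 25620 genes, as whole numbers without normalization, and FPKM values of 25524 genes, already scaled by gene length and library total. The submitters' processing notes list bcl2fastq, FastQC, TopHat2, and edgeR. The counting tool, genome build, and annotation are not given in the sources used here, and the strand setting of the counting was not checked. A further column, 1 in each of the tables, could be tied to none of the described samples and was left out.

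Counts were normalized with TMM and tested with the quasi-likelihood test of edgeR 4.0.16 in R 4.3.3 (filterByExpr, treatment and day as terms, Benjamini-Hochberg adjustment over 16110 genes at 0.05), which kept 36 of the 37 genes (all but *Itga10*). Single-day comparisons of 2 libraries used log2 ratios of CPM (prior count 0.5, at least 10 reads in both together, 2-fold) without a test, with exact Clopper-Pearson intervals at 95% that cover counting error only. The tests were tried on simulated data whose spread between libraries was set below the fitted BCV of 0.495. That trial therefore does not show how many true differences they would find in these libraries. Values in every library are given for the 3 genes of each role with the highest median FPKM, and other genes described so are named as chosen after their values were seen. Of the 37 genes, 1 is counted in the totals and is otherwise not reported here. The members, roles, lists, tests, and alternatives were chosen with earlier results of these data known.

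Alternatives were DESeq2 1.42.0, limma 3.58.1 on log2(FPKM + 1) or log2(FPKM + 0.1), RLE or library-size scaling, other filters, thresholds, and terms, and each library left out. Promoters were read from RefSeq (GRCr8), and the plots were made in Python 3.11.15 with matplotlib 3.10.9.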

Additional observations from a re-analysis of the deposited data

Results flagged for a closer look

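For the genes of each role with the highest median FPKM that are described in every library (*Itga3* and *Itga11*, added later, were not examined), the lowest or highest of the 4 libraries of a day stood apart from the other 3 in 7 of 39 combinations of gene and day. This was judged by Dixon's criterion, the gap to the nearest library divided by the range, at its 95% critical value, on log2 TMM-normalized CPM. The levels and ratios below are on that scale. The 4 libraries of a day carry different treatments, and chance flags about 1 in 20 groups.

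The d-SMG library was lowest on day 3 for *Lamb3* (1.29 against 5.89 to 6.45, ratio of gap to range 0.891). The s-GAG library of day 14 was lowest for *Itgb4* (4.78 against 6.26 to 6.54, ratio 0.841) and *Itgb1* (6.87 against 7.94 to 8.06, ratio 0.899). It was also lowest for *Itgb2* (3.76 against 5.64 to 5.89, ratio 0.882) and *Itgal* (1.10 against 4.29 to 4.66, ratio 0.896), and highest for *Itga2b* (1.84 against 0.13 to 0.41, ratio 0.836). The Alg library of day 3 was lowest for *Itgam* (3.56 against 4.74 to 4.84, ratio 0.918). Of the 7, 1 was thus in the d-SMG library of day 3 and 5 in the s-GAG library of day 14.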

How the results depend on the processing

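No integrin or laminin was called in any of the 6 tested comparisons with RLE or library-size scaling, without the low-count filter, with only the libraries compared, or with limma on FPKM. Day numbers the libraries alike across treatments. Over 18 pairs of same-day libraries the deviations from the treatment means correlated with r from −0.37 to 0.29 (median 0.10, 9 over 0.1), so that the day paired them weakly and unevenly. Without a replicate block the count was 0 in each as well, and leaving out each library in turn gave 0 to 0. Without both d-SMG day 3 and s-GAG day 14, an alternative chosen after seeing the data, it was 0 in each. At an unadjusted p under 0.05 the counts were 2, 2, and 2 for the days and 1, 1, and 0 for d-SMG, s-GAG, and Alg, and DESeq2 called 1 gene for day 14 against day 3 (*Itga7*). Of 168 tested values of single genes, 167 kept their side of the threshold, 1 did not, and 0 reversed. For all genes, s-GAG against control had up to 66 calls when 1 library was left out (d-SMG day 3), 177 without both libraries, and 288 with DESeq2.

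Single-day counts past 2-fold depended on the settings. At 4-fold the counts for d-SMG, s-GAG, and Alg were 2, 2, and 0 on day 3 (7, 9, and 9 at 2-fold), 0, 7, and 3 on day 7 (5, 17, and 17), and 4, 11, and 2 on day 14 (14, 25, and 6). With an exact test at a BCV of 0.3, a value that was set and not estimated, they were 3, 2, and 0, then 0, 7, and 3, and then 4, 14, and 2. That value lies below the fitted BCV of 0.495, and those counts compare pairs of libraries and say nothing about replication. With log2(FPKM + 1) the counts were 3 and 2 for s-GAG and Alg on day 3, 1 for d-SMG on day 7, and 7 and 3 for d-SMG and Alg on day 14, and with log2(FPKM + 0.1) they were 11 and 3 for d-SMG on day 3 and 7. A minimum of 50 reads left 3 for d-SMG on day 7. Library size in place of TMM gave 11 for d-SMG on day 3, all lower, where it shifts the median of all genes by −0.43 and the share of genes past 2-fold that are higher from 39.7 to 18.3%. It gave 5 lower and 6 higher for Alg on day 3 (shift 0.14) and 20 lower and 3 higher for s-GAG on day 14 (shift −0.45). Of 136 single-gene values, 125 stayed on their side of 2-fold, 11 did not, and 0 reversed. With 1 library per group and day no replicate can be left out of a single-day comparison, and neither the depth nor this design separates treatment from animal.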
